A study of Mus musculus with 4 samples.

Results

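Cycling C1q macrophages were barcodes that carried the messenger RNAs of complement component C1q together with those of Mki67 (the proliferation antigen Ki-67) and Top2a (topoisomerase II alpha, which untangles replicated DNA). A barcode was taken when it held at least 500 genes, at most 10% mitochondrial UMIs (unique molecular identifiers, which count captured RNA molecules), at least 2 UMIs of Mki67 plus Top2a, at most 2 of Ccr7 and at most 1 of Xcr1 plus Clec9a. Per 10000 of its UMIs, at least 10 had to come from C1qa, C1qb and C1qc and fewer than 10 from Retnla. Ccr7 marks mature dendritic cells, and Xcr1 and Clec9a mark type 1 conventional dendritic cells (cDC1). The rule took 2035 of the 32523 deposited barcodes, or of the 26882 that passed the limits on genes and mitochondrial UMIs. They were 683 of 8745 in Ad-Null, 1275 of 15656 in Ad-MEM40, 46 of 1810 in Ad-mIFNB and 31 of 671 in Ad-COMBO. Non-cycling C1q macrophages met the same rule with 0 or 1 UMI of Mki67 plus Top2a and numbered 1211, 3600, 191 and 70. Because measured RNA chose the cells, every contrast of cycling with non-cycling cells below is a description.

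The libraries came from B16-F10 melanomas in C57BL/6 mice. Under the skin, 500000 tumor cells had been placed, and on day 12 the tumors were injected with adenovirus. The control virus was labelled Ad-Null. Ad-MEM40 had the treatment label ISF35, a membrane-bound chimeric CD40 ligand, Ad-mIFNB carried mouse interferon beta, and Ad-COMBO was ISF35 and mIFNB together. All groups shared the tumor, the strain, the injection and the sort for CD11c and MHC-II, and the labels call the sorted cells DC. The time from injection to harvest and the age of the mice are not given in the sources used here. Cells from 3 tumors were combined for a library, with 1 library for a virus, so no value has a replicate, no test was made, and all intervals cover counting error only. A difference between viruses cannot be told apart from a difference between libraries.

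Macrophages of a tumor are replaced from blood monocytes and can also divide in place. In a dividing cell the factors of the E2F family switch on genes for DNA replication first. The genes for chromosome segregation follow, through the MuvB core with B-MYB and FOXM1, and histone messages are abundant only while DNA is copied. C1q itself is a defining product of mature tissue macrophages, and C1q-rich macrophages of tumors are known for clearance of dying cells.

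The libraries held 11308, 18185, 2076 and 954 barcodes for the control virus, Ad-MEM40, Ad-mIFNB and the combination, while up to 10000 cells were loaded for each. Barcodes that passed had medians of 15277, 9483, 13616 and 11434 UMIs. Between 0 and 63 barcode sequences were shared by any pair of libraries, and none of these was a cycling C1q macrophage in both.

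Cycling C1q macrophages carried macrophage markers, with markers of other cell types at varied levels. The 12 macrophage markers summed to 10001 CPM (UMIs per 1000000 UMIs of the summed cells) in Ad-Null members and 11965 CPM in Ad-MEM40 members, against 332 and 422 CPM in cycling cDC1. C1qa, C1qb and C1qc are among the 12, and cDC1 had to lie below the C1q limit, so the choice of cells set much of this contrast and it is given as a description. The 9 other markers summed to 3592 and 4501 CPM, against 254 and 313 CPM in cycling cDC1. Outside the genes that set the rule, the members of Ad-Null were led over all other barcodes by Ccl12, a monocyte-attracting chemokine, at 790 against 131 CPM. Vcam1, an adhesion molecule, stood at 77.5 against 12.9 CPM and Stab1, a scavenger receptor, at 116 against 22.3 CPM. Ad-MEM40 gave the same 3 genes among its 7 highest, with Ccl12 at 610 against 164 CPM. The 10 cDC1 markers summed to 673 and 665 CPM, against 5122 and 5376 CPM in cycling cDC1. The 8 markers shared by conventional dendritic cells summed to 5888 and 5991 CPM (13512 and 14310 in cycling cDC1). The MHC class II genes H2-Ab1 and H2-Eb1 are among them. The 11 cDC2 markers summed to 881 and 721 CPM, against 414 and 317 CPM in cycling cDC1. The 10 markers of plasmacytoid dendritic cells summed to 641 and 727 CPM, against 441 and 383 CPM in cycling cDC1. The 9 monocyte markers summed to 1547 and 1724 CPM, near the 1682 and 1513 CPM of cycling cDC1. Markers of T or NK cells summed to 2.12 and 11.4 CPM and those of B cells to 13.4 and 19.0 CPM.

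Other cells' RNA was present in some members. The 10 melanoma genes, which include Gpnmb, a gene that macrophages also express, summed to 141 CPM in Ad-Null members and 593 CPM in Ad-MEM40 members, and to 223 and 394 CPM in non-cycling C1q macrophages. At least 3 UMIs of the melanoma genes without Gpnmb were found in 216 members of Ad-Null (31.6%) and 370 of Ad-MEM40 (29%), compared with 21.4% and 16.5% of non-cycling C1q macrophages and 4.67% and 3.95% of cycling cDC1. The 10 members richest in these genes held 74.9% of the melanoma UMIs of Ad-MEM40 members, so the Ad-MEM40 sum rests on few barcodes. The limit of 3 melanoma UMIs is a raw count, so depth enters the shares that reached it. Median totals were 23107 and 14907 UMIs in members, 12104 and 7764 in non-cycling cells and 27556 and 16523 in cycling cDC1. The summed melanoma CPM was lower in members than in non-cycling cells of Ad-Null and higher in Ad-MEM40. Doublet calls marked 66 members of Ad-Null (9.66%) and 287 of Ad-MEM40 (22.5%), against 5.70% and 11.3% of non-cycling C1q macrophages. Among all barcodes that passed they marked 612 of 8745 in Ad-Null (6.998%) and 1961 of 15656 in Ad-MEM40 (12.5%). The expected share was set at 0.8% per 1000 barcodes, so it was higher in the larger library. The calls therefore cannot tell whether doublets were more frequent in Ad-MEM40 than in Ad-Null. Called barcodes were kept, and what leaving them out does is given with the alternatives.

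Of all C1q macrophages, 36.1% were cycling in Ad-Null (683 of 1894, exact Clopper-Pearson 95% interval 33.9 to 38.3%) and 26.2% in Ad-MEM40 (1275 of 4875, 24.9 to 27.4%). The share was 19.4% in Ad-mIFNB (14.6 to 25%) and 30.7% in Ad-COMBO (21.9 to 40.7%). The intervals of Ad-Null and Ad-MEM40 did not overlap, and that of Ad-COMBO overlapped both. Since the rule counts raw UMIs, depth enters these shares. The median member held 23107 UMIs in Ad-Null and 14907 in Ad-MEM40, and the median non-cycling cell 12104 and 7764.

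Thinning every C1q macrophage to 5000 UMIs lowered each share and kept the order of Ad-Null and Ad-MEM40. The thinned shares were 26.1% for Ad-Null (23.9 to 28.4%) and 20.7% for Ad-MEM40 (19.4 to 22.1%). They were 12.7% in Ad-mIFNB (8.18 to 18%) and 21% in Ad-COMBO (12.7 to 32.3%). Shallower cells had to be left out, which were 339, 1341, 45 and 26. Among cDC1, taken with at least 2 UMIs of Xcr1 plus Clec9a and C1q below the limit, the thinned share was 32.1% in Ad-Null and 33.1% in Ad-MEM40. The lower share of Ad-MEM40 was thus seen after thinning in C1q macrophages and not in cDC1, though the difference between the cell types was not tested.

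**Figure D1:**
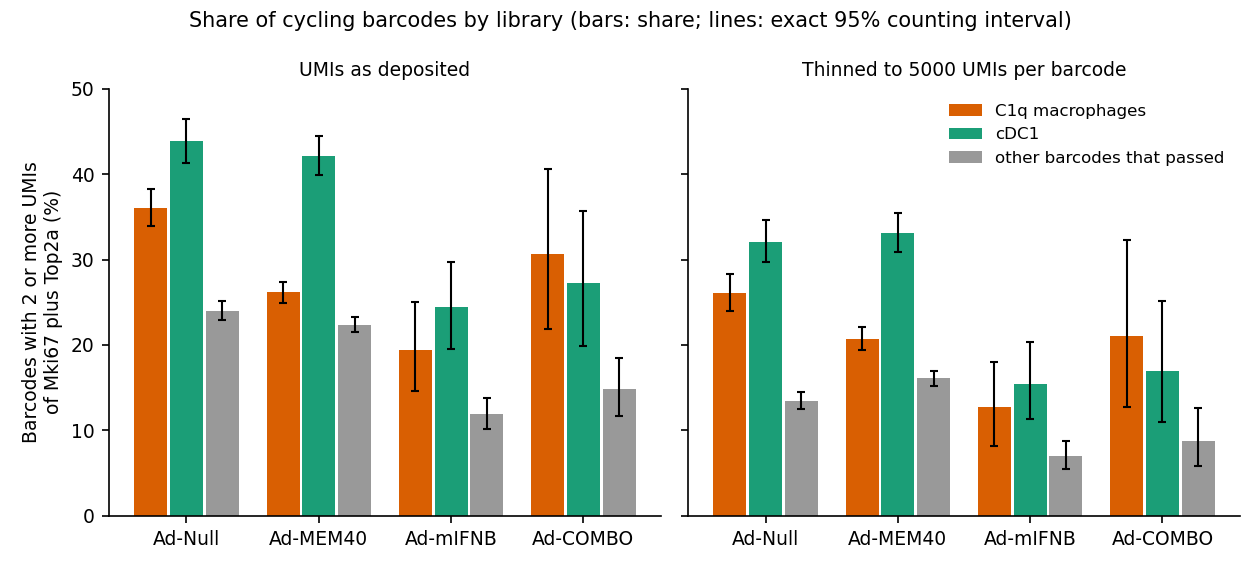
Percent of barcodes with 2 or more UMIs of Mki67 plus Top2a in each library, as deposited and after thinning to 5000 UMIs, for C1q macrophages, cDC1 and all other barcodes that passed, with exact 95% counting intervals. C1q macrophages go from 36.1% in Ad-Null to 26.2% in Ad-MEM40 as deposited and from 26.1% to 20.7% after thinning, while cDC1 of these libraries stay within 32.1% to 33.1% after thinning.

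C1q macrophages made up 21.7% of the barcodes that passed in Ad-Null and 31.1% in Ad-MEM40, so the members' share of all barcodes that passed was 7.81% and 8.14%. It was 2.54% in Ad-mIFNB and 4.62% in Ad-COMBO. The lower cycling share in Ad-MEM40 thus stood beside a larger C1q macrophage fraction and a similar fraction of cycling C1q macrophages among all barcodes.

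The genes that set the rule are given first, as a check of it. Mki67 (chr7:135689784-135716361, minus strand, GRCm38) stood at 426 CPM in Ad-Null members (95% Poisson interval 416 to 435) and 382 in those of Ad-MEM40 (374 to 391). It stood at 338 CPM in Ad-mIFNB and 285 CPM in Ad-COMBO members, and at 3.77 to 13.7 CPM in non-cycling cells. Top2a (chr11:98992943-99024189, minus strand) stood at 297, 334, 195 and 210 CPM in members. Both genes were detected in 520 Ad-Null members (76.1%) and 906 Ad-MEM40 members (71.1%). C1qa, C1qb and C1qc lie side by side on chromosome 4 and encode the 3 chains of C1q. C1qa stood at 2206 CPM in Ad-Null members and 2198 in non-cycling cells, and at 2570 and 2523 CPM in Ad-MEM40. The median cell held 64.8 C1q UMIs per 10000 in Ad-Null members and 50.02 in non-cycling cells, and 69.9 and 54.3 in Ad-MEM40. The rule used this quantity, so these values are a description.

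Segregation, DNA replication and chromatin genes filled the upper end of the comparison in both large libraries. Genes with at least 50 CPM in cycling or non-cycling cells and 50 UMIs over both were compared as log2 ratios with 5 CPM added, and a gene was counted from 1.5-fold. In Ad-Null, 194 of 3098 genes were higher in cycling cells (6.26%) and 39 lower (1.26%). In Ad-MEM40, 189 of 3185 were higher (5.93%) and 35 lower (1.1%). Of 2881 genes compared in both, 165 were higher in both libraries, 19 lower in both and 0 opposite, and 78 of the 165 were on no cell cycle list. For the gene lists, members needed 20 UMIs, and over all genes at that limit 4.85% were higher in Ad-Null and 4.45% in Ad-MEM40, with 0.657% and 0.508% lower.

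Genes that license and fire replication origins came first in the order of the cycle. Of 20 such genes 18 were higher in Ad-Null and 19 in Ad-MEM40, with median log2 ratios of 1.16 and 1.09, where the median over all genes was 0.05 and 0.04. Mcm10, which joins the helicase to the start of DNA synthesis, was at 26.4 CPM in members and 2.63 CPM in non-cycling cells of Ad-Null, and at 30.8 and 4.29 CPM in Ad-MEM40 (log2 2.04 and 1.94). Mcm5, a subunit of the replicative helicase, had ratios of 1.20 and 1.28. Of 26 DNA synthesis and fork genes 22 were higher in each library. Pclaf, a partner of the sliding clamp, went from 17.9 to 242 CPM and from 16.9 to 248 CPM (3.44 and 3.53). Clspn, a mediator of the replication checkpoint, had ratios of 2.41 and 2.27, whereas Pcna, the sliding clamp of the polymerases, had 0.81 and 0.76 and was at 151 and 149 CPM in non-cycling cells. Of 21 nucleotide supply genes 15 and 14 were higher, among them Rrm2 of ribonucleotide reductase (2.43 and 2.54) and Tk1, thymidine kinase (2.41 and 2.76).

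Replication-dependent histones spanned the widest range. Of 24 measured in Ad-Null 23 were higher, with a median of 2.45, and of 25 in Ad-MEM40 22 were higher, with a median of 1.83. Hist1h1b, a linker histone (chromosome 13), went from 21.2 to 577 CPM in Ad-Null and from 19.9 to 652 CPM in Ad-MEM40 (4.47 and 4.72). Hist1h2ap, an H2A gene, went from 55.8 to 1374 CPM and from 20.8 to 592 CPM (4.50 and 4.53). Histone genes of the cluster are near-identical copies, and most of their messages lack a poly(A) tail, so reads may be split between copies and are captured in part. The same holds for Hist1h2ae and Hist1h3c, whose ratios were 4.35 and 4.14, and 4.06 and 3.95.

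Mitotic genes were higher as a block. All 38 genes of the spindle, mitotic kinase and cytokinesis list were higher in both libraries, with medians of 2.48 and 2.37. Prc1, which bundles microtubules of the spindle midzone, stood at 131, 135, 115 and 107 CPM in members of the 4 libraries and at 3.14 to 7.09 CPM in non-cycling cells. Birc5, the survivin subunit of the chromosomal passenger complex, had ratios of 3.20 and 3.08. Of 26 kinetochore and checkpoint genes 25 were higher in each library, led by Cenpe, a kinetochore motor (3.76 and 3.21), and Cenpf, a kinetochore protein (3.53 and 3.50). Of 17 condensin, cohesin and anaphase genes 16 and 15 were higher. Ube2c, the ubiquitin-conjugating enzyme of the anaphase-promoting complex, had ratios of 3.43 and 3.42, and Smc2, a condensin subunit, 2.64 and 2.44. Pttg1, the securin that holds back separase, was an exception with 0.05 and 0.00. It was at 43.7 CPM in members and 41.9 CPM in non-cycling cells of Ad-Null.

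Among 21 cyclin and CDK genes 13 and 15 were higher. Ccnb1, the mitotic cyclin B1, went from 2.63 to 47.3 CPM in Ad-Null and from 3.39 to 49.1 in Ad-MEM40, and Ccna2, cyclin A2, had ratios of 3.05 and 3.03. Ccne1, the cyclin of the G1-to-S step, had 1.42 and 1.46. The D-type cyclin Ccnd1, which acts in G1, stood at 324 CPM in members and 267 in non-cycling cells of Ad-Null and at 306 and 253 CPM in Ad-MEM40, a ratio of 0.27 in both. Of the CDK inhibitors, 3 of 9 and 3 of 10 were higher. They were Cdkn2c and Cdkn2d, inhibitors of CDK4 and CDK6, at 1.78 and 1.89 and at 1.11 and 1.21, and Cdkn3, a phosphatase of CDKs, at 2.13 and 2.22. Cdkn1a, the p21 inhibitor, was at 453 against 543 CPM and 470 against 585 CPM, within 1.5-fold.

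Among 16 E2F and DREAM regulators 10 and 8 were higher. Foxm1, an activator of mitotic genes, had ratios of 2.08 and 2.16, and Mybl2, which encodes B-MYB, 1.63 and 1.66. Rb1, the retinoblastoma protein, had 0.00 in both libraries and Myc, a growth regulator, 0.18 and 0.21. Of 20 chromatin assembly and maintenance genes 20 and 19 were higher, including Uhrf1, which carries DNA methylation through replication (1.93 and 1.86), and Ezh2, a histone methyltransferase (1.68 and 1.64). Of 19 DNA repair genes 15 and 17 were higher.

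**Figure D2:**
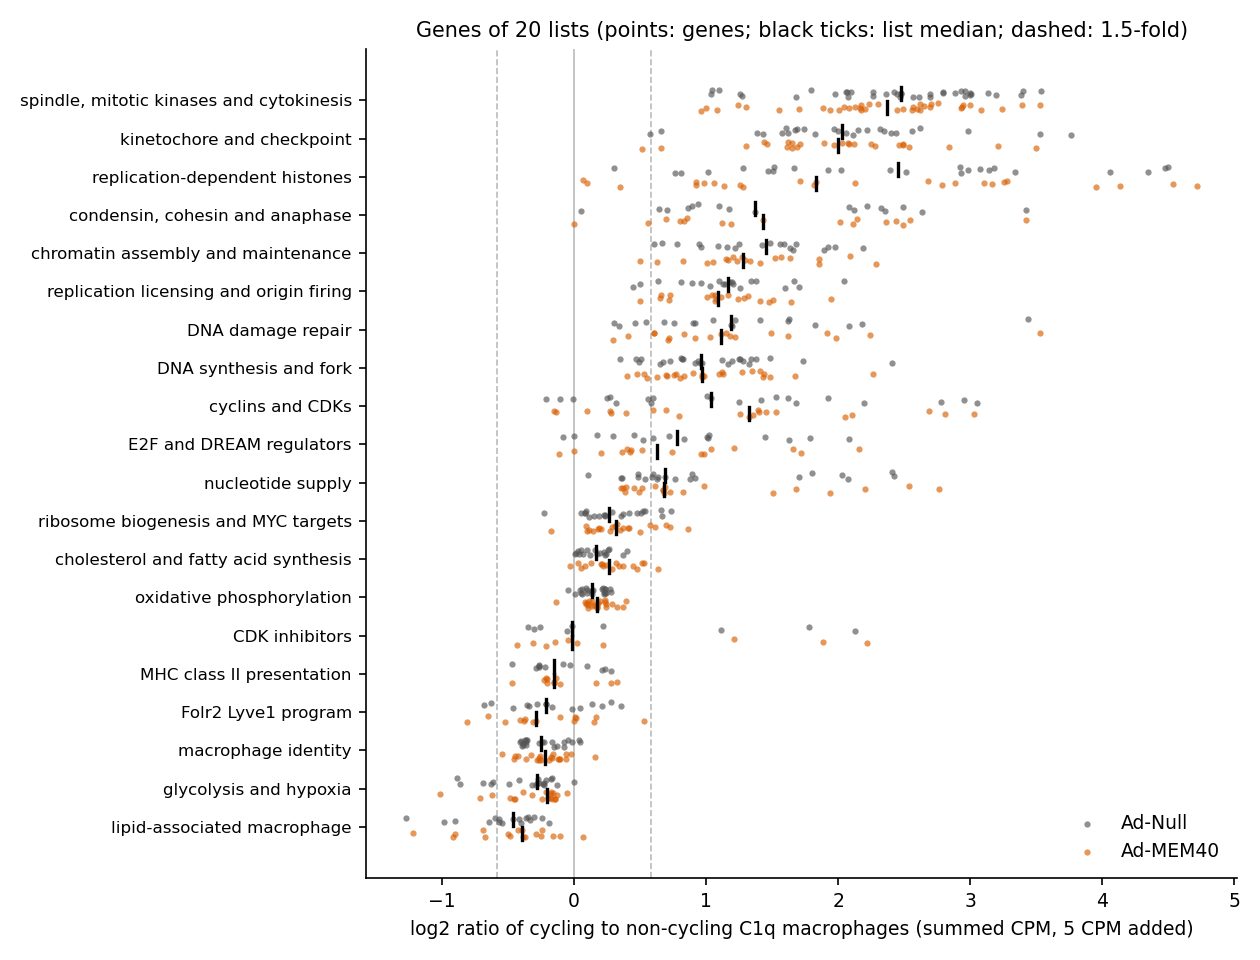
Log2 ratio of cycling to non-cycling C1q macrophages (x axis, 5 CPM added) for each gene of 20 lists (rows), with Ad-Null in grey and Ad-MEM40 in orange, list medians as black ticks and 1.5-fold as dashed lines. The 38 spindle genes lie right of 1.5-fold in both libraries, oxidative phosphorylation genes lie near 0, and the lipid-associated macrophage list has medians of -0.46 and -0.39.

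Outside the cell cycle lists, the 10 highest genes were Dlgap5, Spdl1, Slfn9, Tmpo, Ccdc34, Selenoh, Hjurp, Usp1, Dnajc9 and Nucks1. Their smaller ratio over the 2 libraries ran from 1.26 to 2.49. Several have known roles in division: Dlgap5 stabilises spindle microtubules (60.8 against 6.69 CPM in Ad-Null), Spdl1 recruits dynein to kinetochores (63.6 against 12.7 CPM), and Hjurp loads the centromeric histone (60.0 against 21.2 CPM). Usp1 is a deubiquitinase of DNA repair (87 against 32.8 CPM), and Tmpo encodes a lamin-associated protein of the nuclear envelope (195 against 60.1 CPM).

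The promoters of these genes were searched for the letters of elements known from cell cycle genes, because the mitotic genes moved together. Windows ran from 250 bases before to 50 after each RefSeq start in GRCm38.p6, and matches on either strand were counted. TTTGAA, the cell cycle homology region (CHR), was in 47 of 77 promoters of the 3 mitotic lists (61%) and in 17.9% of all 32851 promoters. CCAAT was in 68.8% of the mitotic promoters and 37.4% of all, and both were in 48.1% and 6.95%. CCAAT was also in 12 of 17 promoters of the licensing list (70.6%). Of the 81 mitotic genes 69 were matched to a promoter, and of the 20 licensing genes 15. In the licensing list 6 of 17 promoters held the CHR letters (35.3%), while 7 of 17 (41.2%) held TTTCCCGC or TTTGGCGC, forms of the E2F site found in 1.56% of all promoters. These E2F forms were in 7 of the 77 mitotic promoters (9.09%), 4 of them among the 15 of the condensin, cohesin and anaphase list (26.7%). Each promoter was scored only as holding the letters or not, and a match is a description, not a site of binding.

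The promoters of the 2 genes that set the rule and of Mcm10, the licensing gene with the highest smaller ratio, are shown to let these letters be seen. Each run covers 200 bases before and 30 after the start, 5′ to 3′ on the gene's strand, which is the minus strand for all. Capitals mark CHR letters (TTTGAA, or TTCAAA from the other strand) and CCAAT (or ATTGG). Mki67 is at chr7:135716350-135716579, Top2a at chr11:99024160-99024389 and Mcm10 at chr2:5012762-5012991 of GRCm38.p6.
Mki67: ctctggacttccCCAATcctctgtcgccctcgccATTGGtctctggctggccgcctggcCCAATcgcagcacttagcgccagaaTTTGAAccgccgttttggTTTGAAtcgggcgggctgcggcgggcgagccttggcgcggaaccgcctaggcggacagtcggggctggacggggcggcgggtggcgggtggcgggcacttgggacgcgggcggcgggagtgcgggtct
Top2a: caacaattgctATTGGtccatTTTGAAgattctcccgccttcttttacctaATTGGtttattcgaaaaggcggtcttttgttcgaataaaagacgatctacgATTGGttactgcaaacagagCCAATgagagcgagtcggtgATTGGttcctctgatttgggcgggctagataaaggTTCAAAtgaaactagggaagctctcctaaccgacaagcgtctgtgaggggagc
Mcm10: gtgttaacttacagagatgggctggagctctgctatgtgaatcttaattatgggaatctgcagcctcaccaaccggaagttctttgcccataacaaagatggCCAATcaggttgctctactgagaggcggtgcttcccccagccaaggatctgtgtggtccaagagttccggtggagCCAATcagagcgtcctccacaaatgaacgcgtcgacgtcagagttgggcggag
Mki67 and Top2a each hold CHR and CCAAT letters, and Mcm10 holds CCAAT alone within these windows.

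Cycling cDC1 carried the same groups of genes. In cDC1, the 38 spindle genes were again all higher (all genes 5.73% and 6.65%), with medians of 2.95 and 3.05 against 2.48 and 2.37 in C1q macrophages. The kinetochore list had medians of 2.54 and 2.52, against 2.03 and 2.00. Prc1 had ratios of 3.54 and 3.93 and Hist1h1b of 5.43 and 5.83 in cDC1. The median cycling cDC1 held 21 UMIs of Mki67 plus Top2a in Ad-Null and 15 in Ad-MEM40, and the median cycling C1q macrophage 9 and 6, at 27556 and 16523 UMIs in all against 23107 and 14907. These differences were not tested.

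Members differed in their levels of phase genes. S-phase genes were the 67 of the licensing, DNA synthesis and nucleotide lists, and G2/M genes the 81 of the kinetochore, spindle and condensin lists, none of which includes Mki67 or Top2a. Per 10000 UMIs, the median member had 22.7 S-phase UMIs in Ad-Null and 23 in Ad-MEM40, against 10.3 in non-cycling cells of each. For G2/M genes it had 62.0 and 60.5, against 16.8 and 17.1. The 2 libraries were nearly equal in both measures. In Ad-mIFNB and Ad-COMBO the members' medians were 19.8 and 13.8 for S-phase and 60.7 and 43.6 for G2/M genes, from 46 and 31 cells.

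S-phase genes exceeded G2/M genes in 110 Ad-Null members (16.1%) and 220 Ad-MEM40 members (17.3%). In those of Ad-Null, Mcm5 was at 106 CPM and Cenpf at 2.2 CPM. In the members with more G2/M than S-phase UMIs they were at 43.1 and 152 CPM. Mcm5 is on an S-phase list and Cenpf on a G2/M list, so the split itself favoured this contrast. Histones, which are on neither, summed to 1255 CPM in Ad-Null members with more S-phase UMIs, against 5339 CPM. In Ad-MEM40 they summed to 765 against 3750 CPM. Histone sums were thus higher in members with more G2/M than S-phase UMIs. No phase was called, and a contribution of free RNA was not tested.

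**Figure D3:**
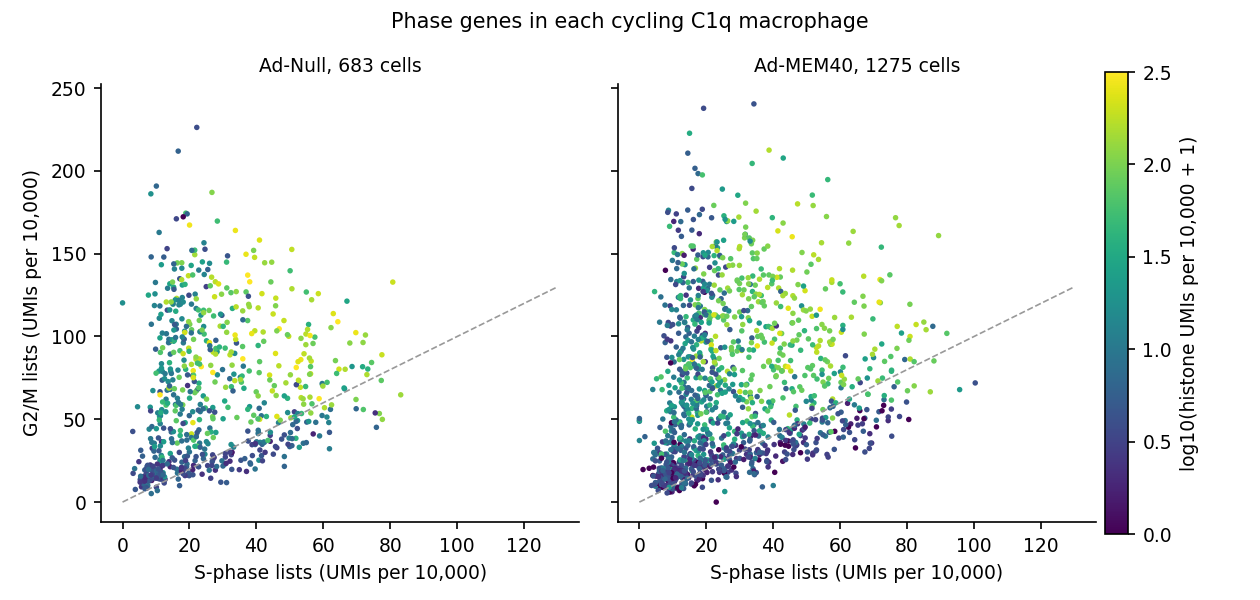
Each point is a cycling C1q macrophage, placed by its UMIs of S-phase lists (x) and of G2/M lists (y) per 10000 UMIs and coloured by the log10 of its histone UMIs, for Ad-Null (683 cells) and Ad-MEM40 (1275 cells), with the dashed line at equal values. Points below the line, 110 and 220 cells, are mostly dark, and the bright points of high histone level lie above it at middle to high S-phase values.

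The threshold of 2 UMIs did not fall at a gap. In Ad-Null 313 C1q macrophages held exactly 1 UMI of Mki67 plus Top2a and 134 exactly 2, and in Ad-MEM40 857 and 308. Their median G2/M levels per 10000 UMIs were 19.1 at 1 UMI and 20.6 at 2 in Ad-Null, and 18.7 and 25.1 in Ad-MEM40. Members with 30 or more UMIs, 135 and 129 cells, reached 112 and 131. The S-phase level went from 12.0 at 2 UMIs to 24.2 at 4 to 9 UMIs and 28.7 at 30 or more in Ad-Null, and from 14.6 to 22.7 and 34.1 in Ad-MEM40. Depth moved with these bins, since the median total went from 16301 UMIs at 2 UMIs to 39824 at 30 or more in Ad-Null. Conversely, 151 of the 1211 non-cycling cells of Ad-Null (12.5%) and 458 of the 3600 of Ad-MEM40 (12.7%) had S-phase levels at or above the members' median, and the median total of these cells was 7780 and 6038 UMIs.

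**Figure D4:**
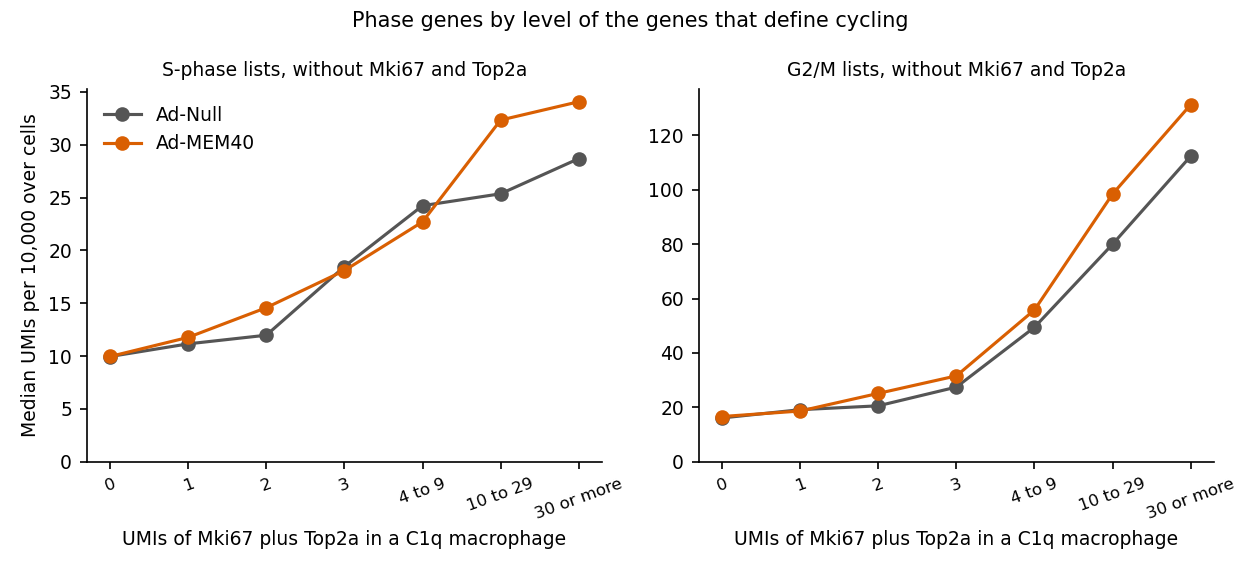
Median UMIs per 10000 of the S-phase lists (left) and G2/M lists (right) over C1q macrophages grouped by their UMIs of Mki67 plus Top2a (x axis, from 0 to 30 or more), for Ad-Null and Ad-MEM40. G2/M levels run from 16.1 and 16.6 at 0 UMIs to 112 and 131 at 30 or more, with no step between 1 and 2 UMIs in Ad-Null.

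Macrophage identity genes stayed within 1.5-fold of non-cycling cells. None of 22 such genes was counted as higher or lower in either library, with medians of -0.25 and -0.22. Adgre1, which encodes F4/80, stood at 99.2 CPM in members and 132 in non-cycling cells of Ad-Null and at 152 and 183 CPM in Ad-MEM40. Mrc1, the mannose receptor, was at 455 and 459 CPM and at 424 and 426 CPM. Apoe, a lipid carrier, was at 1538 and 1979 CPM and at 2086 and 2492 CPM. Maf, a transcription factor of macrophages, had ratios of 0.04 and -0.03.

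A few macrophage genes stood above their level in non-cycling cells but short of 1.5-fold. Ccl12 stood at 790 against 528 CPM in Ad-Null and 610 against 431 CPM in Ad-MEM40 (0.58 and 0.50). Cx3cr1, the fractalkine receptor, stood at 77.0 against 51.7 CPM and 112 against 76.0 CPM (0.53 and 0.52), and Stab1 had 0.36 and 0.53. Ribosome biogenesis and MYC target genes were a further group, with 3 and 4 of 22 counted as higher and medians of 0.26 and 0.32. Nop58, a core protein of small nucleolar RNPs, had 0.66 and 0.73. Oxidative phosphorylation genes had medians of 0.14 and 0.18 with 0 of 23 past 1.5-fold, and cholesterol and fatty acid synthesis genes 0.17 and 0.27.

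The 10 lowest genes in cycling cells were Pla2g7, Abca1, Vegfa, Slfn4, Mmp12, Arg1, Ecm1, Mxi1, Sgk1 and Thbs1. Pla2g7, a secreted phospholipase of lipid mediators, stood at 92.6 against 181 CPM in Ad-Null and 128 against 245 CPM in Ad-MEM40 (-0.93 and -0.91). Abca1, the cholesterol exporter, stood at 43.2 against 90.4 CPM and 70.4 against 136 CPM (-0.99 and -0.91). Vegfa, the angiogenic growth factor, had -0.89 and -1.02, and Thbs1, a matrix glycoprotein, -0.71 and -1.13. Mxi1, an antagonist of MYC, had -0.86 and -0.73, and Sgk1, a kinase, -0.71 and -0.82.

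Some of these rested on how cells were weighted. Mmp12, a macrophage elastase, stood at 383 against 685 CPM in Ad-Null (-0.83), but at -0.38 when each cell counted equally. Arg1, arginase 1, stood at 288 against 489 CPM (-0.75) and at -0.58 in that way, just short of 1.5-fold. Thbs1 in Ad-Null had -0.57 in that way and -0.46 among cells of 5000 to 40000 UMIs. Slfn4, an interferon-inducible gene of myeloid cells, had -0.89 and -0.84, and -0.41 and -0.39 after weighting non-cycling cells to the members' depth. Ecm1, a matrix protein, had -1.04 and -0.74, and -0.55 in Ad-MEM40 with each cell counted equally.

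Of 17 lipid-associated macrophage genes 5 were lower in each library and 0 higher, with medians of -0.46 and -0.39. Ctsl, a lysosomal protease, stood at 512 against 963 CPM and 618 against 992 CPM (-0.90 and -0.68, but -0.47 in Ad-MEM40 with each cell counted equally). Spp1, osteopontin, stood at 308 against 458 CPM and 245 against 465 CPM (-0.57 and -0.91). Of 20 glycolysis and hypoxia genes 5 and 3 were lower, including Hilpda, a hypoxia-induced lipid droplet protein (-0.69 and -0.71, but -0.54 in Ad-Null with each cell counted equally), while Ldha, lactate dehydrogenase, had -0.23 and -0.17. Of 14 monocyte-derived genes 2 and 3 were lower, with Thbs1 in both libraries. Fn1, fibronectin, had -0.82 and -0.34, and Ly6c2, the classical monocyte antigen, -0.53 and -0.67. The Ly6c2 ratio of Ad-MEM40 was -0.57 without barcodes of 3 or more melanoma UMIs and -0.53 with each cell counted equally. Of 12 MHC class II genes 0 passed 1.5-fold. In cycling cDC1 the lipid-associated list had medians of -0.05 and -0.03, and Abca1 had ratios of 0.16 and 0.14 and Pla2g7 0.13 and -0.08 at 2.04 and 6.34 CPM in cycling cDC1 of Ad-Null.

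The label macrophage held less well at the low end of the C1q range. Members with 10 to 30 C1q UMIs per 10000 numbered 135 in Ad-Null (19.8%) and 235 in Ad-MEM40 (18.4%), and those above 100 numbered 139 (20.4%) and 358 (28.1%). From the low over the middle to the high range, the macrophage markers summed to 3891, 9728 and 17981 CPM in Ad-Null and 4156, 10447 and 20075 CPM in Ad-MEM40, a sum that contains C1q. Apoe, not used in the rule, went from 656 to 3212 CPM and from 818 to 3854 CPM between the ends. The 8 pan-cDC markers went the other way, from 10530 to 3224 CPM and from 8000 to 3532 CPM. H2-Ab1, an MHC class II gene on this list, gave 5542 and 1564 CPM of the Ad-Null sums, and the cells were sorted on MHC-II. Flt3 and Zbtb46 of the same list stood at only 15.5 and 16.6 CPM in the low range of Ad-Null. In its high range they stood at 2.56 and 1.92 CPM. Ccr2, the receptor of monocyte recruitment, also went down (291 to 93.4 and 274 to 76.0 CPM).

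Doublet calls moved with the same range. They marked 23.7% of low-C1q members and 0.72% of high-C1q members in Ad-Null, and 28.9% and 5.31% in Ad-MEM40, where the middle range was at 29.3%. In Ad-MEM40 the melanoma genes summed to 1966 CPM in the low range and 168 CPM in the high range. Their part in the marker pattern was not tested. Just inside the C1q limit, at 10 to 15 per 10000, lay 34 and 58 cycling barcodes with macrophage markers at 2640 and 3039 CPM. Just outside, at 5 to 10, lay 46 and 102 with 1855 and 1992 CPM. Over the low, middle and high C1q range the median G2/M levels per 10000 UMIs were 51.7, 64.4 and 70.3 in Ad-Null and 47.9, 61.5 and 70.5 in Ad-MEM40.

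A fraction of members carried Folr2, the folate receptor of resident-like macrophages, or Lyve1, a hyaluronan receptor. At least 1 UMI of either was found in 195 Ad-Null members (28.6%, 25.2 to 32.1%) and 507 Ad-MEM40 members (39.8%, 37.1 to 42.5%), at medians of 23107 and 14907 UMIs. In cycling cDC1, which should lack both, the shares were 3.11% and 6.06%. After thinning to 5000 UMIs the members' shares were 14.0% and 25.2%, the non-cycling cells' 17.4% and 29.6%, and those of cycling cDC1 0.75% and 1.86%. Mki67 or Top2a and Folr2 or Lyve1 were thus found in the same barcodes. Doublet calls marked 10.3% and 26.2% of members with a UMI of Folr2 or Lyve1, against 9.43% and 20.1% of the other members. Among non-cycling cells with such a UMI they marked 5.65% and 10.2%. A part of doublets in the joint detection was not tested. The thinned shares of members and non-cycling cells had overlapping intervals in Ad-Null (11.3 to 16.8% and 14.9 to 20.0%). In Ad-MEM40 the intervals only just failed to overlap (22.7 to 27.81% and 27.83 to 31.5%). Thinning there left out 139 of 1275 members but 1202 of 3600 non-cycling cells, and the difference was not tested. Folr2 itself stood at 48.8 CPM in members and 78.4 CPM in non-cycling cells of Ad-Null (-0.63, and between -0.33 and -0.58 under 4 of the alternatives), and at 89.9 and 132 CPM in Ad-MEM40 (-0.53). Members of Ad-Null with a UMI of Folr2 or Lyve1 held 665 CPM of Mrc1 and 894 CPM of Ccl8, a monocyte-attracting chemokine, against 351 and 268 CPM in the others.

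Between Ad-MEM40 and Ad-Null, cycling C1q macrophages differed in few genes. Of 3147 genes 33 were higher in Ad-MEM40 (1.05%) and 26 lower (0.826%), against 42 (1.42%) and 20 (0.678%) of 2952 in non-cycling C1q macrophages. The cell cycle lists did not differ in their medians by more than 0.13 in either direction, apart from the histones at -0.44. Mki67 had a ratio of -0.15 and Top2a of 0.17. Under the 20-UMI limit of the lists, 1.14% of all genes were higher and 0.386% lower, and in non-cycling cells 0.83% and 0.326%.

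Of the 12 highest genes 5 were melanoma or fibroblast markers, not counting Gpnmb, which is also on the melanoma list. Dct and Tyrp1, enzymes of melanin synthesis, and Pmel, a melanosome protein, had ratios of 2.48, 2.44 and 2.41. Without barcodes of 3 or more melanoma UMIs they were 0.36, 0.21 and 0.31, and without doublet calls 0.50, 0.38 and -0.01. The melanoma UMIs include those of these genes, so the values under that filter were partly set by it. Col1a1, the collagen chain of fibroblasts, stood at 52.9 CPM in Ad-MEM40 members and 0.344 in those of Ad-Null, and 99.0% of its UMIs were in a single barcode, as were 82.0% of those of Sparc, a matrix glycoprotein (3.49). The 7 fibroblast markers summed to 3.78 CPM in Ad-Null members and 217 CPM in Ad-MEM40 members. Gpnmb, a glycoprotein of both melanoma cells and lipid-associated macrophages, went from 42.7 to 112 CPM (1.30) and had 0.46 without the barcodes of 3 or more melanoma UMIs.

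The remaining genes were Saa3, Tppp3, Ccl5, Cbr2, Ifi27 and Clec4d. Saa3, an acute-phase apolipoprotein (chromosome 7), stood at 22.6 CPM in Ad-Null members (20.5 to 25) and 105 in Ad-MEM40 members (100 to 109), a ratio of 1.99. It was detected in 6.30% and 13.3% of members, with 32.9% of its UMIs in 1 barcode in Ad-Null and 13.7% in Ad-MEM40, and the ratio in non-cycling cells was 1.71. Cbr2, a carbonyl reductase of resident-like macrophages, stood at 29.3 and 73.1 CPM (1.19, and 1.20 in non-cycling cells). Ccl5, a chemokine for T cells, had 1.24 against 0.60 in non-cycling cells. Tppp3, a tubulin-binding protein, had 1.30 against 1.08, Clec4d, a C-type lectin of myeloid cells, 0.95 against 0.79, and Ifi27, an interferon-inducible gene, 1.01 against 0.67. In cycling cDC1 Saa3 had 0.73, Cbr2 1.04 and Ifi27 1.17, above 0 as in the macrophages.

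Of the 12 lowest genes, 6 were histone genes. Hist1h2ap went from 1374 to 592 CPM (-1.21), Hist1h4h had -0.96 and Hist1h2bj -0.93. Hist1h3f, Hist1h3b and Hist1h4d had -0.91, -0.76 and -0.71. The linker histones Hist1h1b and Hist1h1a did not share this, at 0.17 and 0.07. Hist1h2ap was lower by a like amount in non-cycling C1q macrophages (-1.24) and in cycling cDC1 (-1.06), so the difference was not limited to cycling macrophages. Others were Ear2, an eosinophil-associated ribonuclease (-1.15), Mgl2, a galactose-binding lectin of macrophages and cDC2 (-0.88), Thbs1 (-0.85), the noncoding host gene Snhg6 (-0.82) and the clotting factor F7 (-0.77). Weighted to the same depth, Mgl2 had -0.56 and F7 -0.38, and Thbs1 had -0.57 under stricter limits on genes and mitochondrial UMIs.

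**Figure D5:**
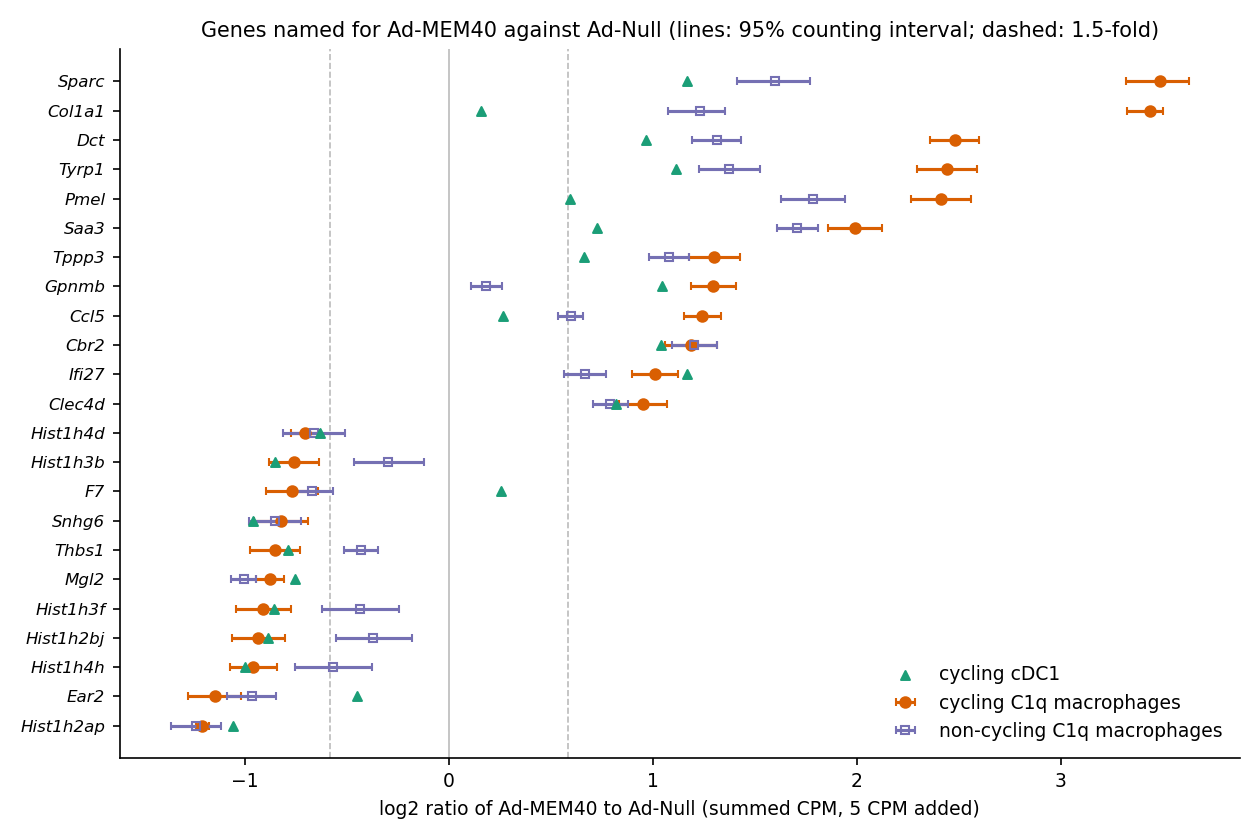
Log2 ratio of Ad-MEM40 to Ad-Null (x axis, 5 CPM added) for the highest and lowest genes named for cycling C1q macrophages (circles), with non-cycling C1q macrophages (squares) and cycling cDC1 (triangles), and 95% counting intervals for the first 2. Saa3, Cbr2 and Hist1h2ap lie close together in cycling and non-cycling cells, whereas Gpnmb is at 1.30 and 0.18 and Col1a1, from 1 barcode, at 3.44 and 1.23.

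The lists are given for cycling and non-cycling cells side by side. Among 18 genes tied to interferon gamma, 4 stood higher in cycling cells (median 0.35) and 10 in non-cycling cells (0.67). AW112010, an interferon-inducible transcript, had 0.87 and 1.11 (0.56 in cycling cells weighted to the same depth) and Gbp2, a guanylate-binding protein, 0.71 and 1.03. Of 12 heme and iron genes 3 were higher: Hmox1, heme oxygenase 1, went from 261 to 507 CPM (0.94, and 0.39 in non-cycling cells), Blvrb, biliverdin reductase B, had 0.70 (0.57 with each cell counted equally) and Fth1, ferritin heavy chain, 0.67. Of 15 genes of the Folr2 and Lyve1 program 4 were higher in cycling cells (median 0.33) and 5 in non-cycling cells (0.35). Folr2 itself was among the 4, at 48.8 against 89.9 CPM. Cholesterol and fatty acid synthesis genes had medians of -0.33 and -0.46, and 0 and 5 of 18 were lower. Of 22 CD40 and NF-kB target genes 1 was higher in each, with medians of 0.05 and 0.14, and of 26 type I interferon genes also 1 in each (0.13 and 0.17). Whether cycling and non-cycling cells differed in these responses was not tested.

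Ad-mIFNB and Ad-COMBO held few members, and in both the cycle program was present. All 37 measured spindle genes were higher in cycling than in non-cycling cells of Ad-mIFNB and 31 of 32 in Ad-COMBO, with medians of 2.78 and 2.53. In such small sums 10.9% and 11.9% of all genes were higher. Cdk1, the mitotic kinase, stood at 81.1 against 4.71 CPM and 63.3 against 6.31 CPM. Of 17 and 14 condensin, cohesin and anaphase genes 15 and 9 were higher.

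Interferon-stimulated genes were high in the cycling cells of both. Against Ad-Null members, 23 of 26 type I interferon genes were higher in Ad-mIFNB (median 1.12, all genes 6.04%) and 23 of 26 in Ad-COMBO (1.43, all genes 7.03%). Ifit1, an antiviral RNA-binding protein, stood at 41.8, 46.9, 359 and 368 CPM in members, from the control virus over Ad-MEM40 and Ad-mIFNB to the combination. Rsad2, which encodes viperin, stood at 111, 150, 893 and 1328 CPM, and Isg15, a ubiquitin-like modifier, at 462, 509, 1186 and 1312 CPM. The 2 libraries with interferon beta were above the other 2 in all 3 genes. Non-cycling cells of both libraries stood higher still in Rsad2, at 1138 CPM in Ad-mIFNB and 1561 CPM in Ad-COMBO, whereas Ifit1 stood at 489 and 315 CPM there.

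Histone genes were lower in members of both libraries, while other replication genes past 1.5-fold were mostly in Ad-COMBO. Of 24 histones 20 were lower in Ad-mIFNB (median -1.12, 4.01% of all genes lower) and 16 in Ad-COMBO (-0.72, 9.23% of all genes lower). Of 20 licensing genes 2 were lower in Ad-mIFNB (-0.40) and 14 in Ad-COMBO (-0.65), with Mcm5 at 53.1, 64.2, 48.2 and 33.9 CPM over the 4 libraries. Of 26 DNA synthesis genes 2 and 10 were lower (-0.29 and -0.52), and of 21 nucleotide supply genes 1 and 10 (-0.26 and -0.57). Spindle genes had medians of -0.09 and -0.30. Of 17 lipid-associated genes 10 were higher in Ad-mIFNB and 14 in Ad-COMBO: Spp1 stood at 308, 245, 1467 and 345 CPM. All 9 melanoma genes were higher in Ad-mIFNB members. There, 98.1% of the UMIs of the melanoma list without Gpnmb came from 10 barcodes. The part of melanoma RNA in the other differences was not tested. These comparisons share the Ad-Null members. The lower histone level was not limited to members. In cycling cDC1 the histones summed to 8212 CPM in Ad-Null, 4016 in Ad-mIFNB and 2734 in Ad-COMBO. Over all barcodes that passed, members included, they summed to 2573, 809 and 765 CPM. Licensing genes summed to 981, 1172 and 831 CPM in cycling cDC1 and to 490, 375 and 284 CPM over all barcodes that passed.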

How the data were processed

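UMI count matrices of 4 sorted-cell libraries were used as the authors deposited them. Each holds raw counts of 32285 genes and was written by Cell Ranger 6.0.0 per the file headers; the submitters' processing notes name Cell Ranger 3.0, Seurat 4.0 and mm10. The cells and gene lists were chosen with earlier results of these data known.

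For each class the UMIs of all its cells were added up and given as CPM, with 95% Poisson intervals. Shares have exact Clopper-Pearson intervals. Both cover counting error only. Log2 ratios had 5 CPM added, needed 50 CPM in 1 of the sums and 50 UMIs over both (20 UMIs for lists), and were counted from 1.5-fold. Shares were also computed after thinning to 5000 UMIs by exact expectation. Genes named outside the lists were the 10 highest, the 10 highest outside the cell cycle lists and the 10 lowest by the weaker of both libraries' ratios, and the 12 highest and 12 lowest for Ad-MEM40. Mitochondrial, ribosomal protein, sex-linked marker and unnamed genes were left out of this ranking, and some results are not reported here. From 49 lists, 723 of 726 genes were in the files. Scrublet doublet calls (scanpy 1.11.5, expected share 0.8% per 1000 barcodes in the 2 large libraries) were used only as an alternative. Gene coordinates are from GENCODE M21 (GRCm38) and promoters from RefSeq (GRCm38.p6). Ratios and intervals were tested on simulated Poisson counts (Python 3.11.15, numpy 2.4.6, scipy 1.17.1). These had no variation between cells, so they do not show how intervals behave where few barcodes hold most UMIs. Thinning was compared with random draws from the UMIs of Ad-Null C1q macrophages.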

Additional observations from a re-analysis of the deposited data

How the results depend on the processing

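No paired analysis was possible because each treatment had 1 library. The order of Ad-Null over Ad-MEM40 in the cycling share held under all 7 alternatives run for it. For Ad-Null (36.1%) the share was 28.5% when cycling needed 4 UMIs, 40.1% with C1q from 30 per 10000, 32.9% without barcodes of 3 or more melanoma UMIs, 38.3% among cells of 5000 to 40000 UMIs and 26.1% after thinning. For Ad-MEM40 (26.2%) these were 18.1%, 28.4%, 23.1%, 31.7% and 20.7%, and it was 23.6% without doublet calls and 27.9% with at least 1000 genes and at most 5% mitochondrial UMIs. For Ad-mIFNB it was 14.5% without barcodes of 3 or more melanoma UMIs and 12.7% after thinning, and for Ad-COMBO 20.5% when cycling needed 4 UMIs and 21% after thinning. When cycling needed 4 UMIs, cells with 2 or 3 UMIs of Mki67 plus Top2a were left out of both classes. The shares were then taken of 1694 C1q macrophages in Ad-Null, 4397 in Ad-MEM40 and 88 in Ad-COMBO, not of all of them.

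With genes from 20 CPM, 382 were higher in cycling cells of Ad-Null and 370 of Ad-MEM40, 54 were lower in Ad-MEM40, and 58 were higher in members of Ad-MEM40 than of Ad-Null. When cycling needed 4 UMIs, 67 and 70 genes were lower. After weighting to the same depth, an alternative chosen after seeing the data, 69 were lower in Ad-Null and 64 higher in members of Ad-MEM40 than of Ad-Null.

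Among list medians and ratios past 1.5-fold, signs turned only for markers of melanoma cells and fibroblasts. Ratios nearer 0 were not tallied. In Ad-MEM40 the cycling to non-cycling ratio became -0.58 for the median of the melanoma list, -0.69 for Dct, -1.33 for Pmel and -0.91 for Tyrp1 without doublet calls. Without barcodes of 3 or more melanoma UMIs it became -0.38, -0.66, -0.41 and -0.36 in the same order, -1.56 for Col1a1 and -2.001 for Sparc. With C1q from 30 per 10000 it was -1.51 for Col1a1 and -1.15 for Sparc, among cells of 5000 to 40000 UMIs -0.038 and -0.10, and for Pmel -0.16 after weighting to the same depth. Between Ad-MEM40 and Ad-Null members, Col1a1 had -0.0091 without barcodes of 3 or more melanoma UMIs and Pmel -0.013 without doublet calls. The filter on melanoma UMIs counts the melanoma list without Gpnmb. Under it, the values of that list, Dct, Pmel and Tyrp1 were therefore partly set by the filter. The cause of the turned signs was not tested.

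With 1 library per treatment, spread between tumors or libraries is unknown. The 46 and 31 members of Ad-mIFNB and Ad-COMBO limit what can be counted there.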
